A study of Mus musculus with 9 samples.

Results

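The genes described here encode the proteins of the cytosolic ribosome. They were chosen by gene symbol: Rpl or Rps followed by a number, with Rplp0 to Rplp2 and Rpsa included, and without the S6 kinases and pseudogenes. Of 26423 probes, 51 matched, for 43 genes of the 23631 features tested (a feature is 1 gene, or 1 probe with no gene symbol). Each gene is represented by its brightest probe. The 43 genes comprise 28 of the large subunit and 15 of the small subunit, and 5 of them are paralogs whose symbol ends in l (Rpl3l, Rpl6l, Rpl39l, Rps4l and Rps27l). Rplp1, Rplp2 and Rps6 were not analysed here.

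The samples are total RNA from the olfactory mucosa of male wild-type C57BL/6 mice aged 6 to 8 weeks, on 9 single-colour arrays. The Ctrl group received saline for 2 weeks. The WK2 group received the synthetic glucocorticoid dexamethasone daily for 2 weeks, intraperitoneally at 1 mg/kg, and the D1 group received it for 1 day, with no dose stated separately. Each group held 9 mice, of which 3 samples went onto arrays, picked for their expression of Omp, the olfactory marker protein gene. The labels do not say whether the 3 came from separate animals, and the p-values cover no more than the spread among them, whether biological or technical.

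A ribosome is built from a small subunit, which decodes the mRNA, and a large subunit, which joins amino acids. Its proteins are made in matching amounts, and in mammals most of their mRNAs begin with a C followed by a run of pyrimidines, the terminal oligopyrimidine (TOP) motif. Through it mTOR complex 1 adjusts their translation, and the RNA-binding protein LARP1 both represses and stabilises these mRNAs. Glucocorticoids change protein synthesis and breakdown in many tissues, and the olfactory mucosa renews its neurons throughout life, which requires ribosome production.

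Array medians ran from 1202 to 1447 intensity units, and 8 to 18 probes per array lay below 0. Of 15 markers of mature olfactory neurons, Omp, by which the samples were picked, read 300267 to 540038. Cnga2, a subunit of the olfactory transduction channel, read 107962 to 232271, and the dimmest of the list, Kcnmb3, 2240 to 5451. Neutrophil markers varied most between arrays, with a median deviation of -1.55 on Ctrl replicate 1 and 1.34 on D1 replicate 2, and the gland and support cell marker Krt8 was at or near 0 throughout (-5.22 to 1.09). On each array the values are whole multiples of 1 step. That step, as left by multiplication with 1 factor per array, was 0.685 to 0.905 in Ctrl, 0.870 to 1.18 in D1 and 1.21 to 1.34 in WK2. It is higher on all 3 WK2 arrays than on the others, so the step and the treatment cannot be told apart, and the results below are set against features of like intensity. In bulk RNA, fewer cells of a type and less RNA per cell cannot be told apart.

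Probe signal for these genes spanned a wide range. In Ctrl, 28 of the 43 lay above the median feature (1456) and 7 lay in the top 10% of features. The brightest were Rpl41, which encodes a very short basic protein of the large subunit, at 389651 ± 29312 (SD, n = 3), Rps26, a protein at the mRNA exit channel, at 194768 ± 25857, Rpl4, which lines the peptide exit tunnel, at 167658 ± 6429, and Rpl8, a protein next to the peptidyl transferase centre, at 128978 ± 9767. The dimmest were Rps29 at 18.8 ± 9.85, Rpsa, also known as the laminin receptor, at 174 ± 52.0, Rpl10a at 221 ± 35.1 and Rpl13 at 279 ± 61.3. A probe's signal depends on its sequence, so this order is one of probes and not of mRNA amounts. No 2 of the 20 brightest features of an array shared a value, but this does not show whether a ceiling was reached. The highest value of an array was 568932 to 654094 of its steps, while the step itself ran from 0.685 to 1.34. Whether the brightest probes, such as that of Rpl41, were near an upper limit was not tested.

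The start sites of the genes were read to see how many carry the TOP motif in the reference. RefSeq (mouse assembly GRCm38.p6) gives at least 1 start for 36 of the 43 genes. The motif was searched on the transcribed strand as a C at the annotated first base followed by at least 4 C or T. It was found for 7 of 36 genes (19.4%), against 813 of 27025 genes in the whole table (3.01%). An annotated start can lie a few bases from the true one, so the share depends on the annotation. The windows of the 7 genes are shown because they hold both the gene with the strongest evidence for a rise at 2 weeks (Rpl38) and the gene that stood lowest (Rps27). Each holds 15 bases before the start and 15 from it on, on the strand transcribed, and the capitals mark the pyrimidine run that begins at the start.
Rpl14, chr9:120571502-120571531, plus strand: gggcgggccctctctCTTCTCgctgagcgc
Rpl15, chr14:18270972-18271001, minus strand: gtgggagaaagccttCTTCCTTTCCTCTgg
Rpl35a, chr16:33056467-33056496, plus strand: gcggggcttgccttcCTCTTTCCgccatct
Rpl38, chr11:114668565-114668594, plus strand: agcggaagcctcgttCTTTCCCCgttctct
Rps15a, chr7:118116133-118116162, minus strand: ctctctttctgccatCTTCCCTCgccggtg
Rps21, chr2:180257364-180257393, plus strand: taccgaggacccgccCTCCTgcccaatagt
Rps27, chr3:90213634-90213663, minus strand: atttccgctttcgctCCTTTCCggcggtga

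After 1 day of dexamethasone the ribosomal protein genes lay, on balance, close to their level in Ctrl. The comparison asks what short treatment changed, although Ctrl received saline for 2 weeks and no group received it for 1 day. Drug and length of treatment thus differ together and cannot be told apart here. Of 43 genes 25 lay above Ctrl (beside 56.6% of all features) and 18 below, with a median log2 difference of 0.04, where all features had 0.03 and features of like intensity 0.01. None passed the limma test at an adjusted p under 0.05 in either direction, as for all features (0% called higher and 0% lower), and the adjusted p of every member rounded to 1.00. With p unadjusted and the same threshold the count was also 0, beside 1.18% of all features higher and 0.821% lower.

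Single genes lay apart from Ctrl on the D1 arrays without passing the test. Rpl8 read 139561, 127065 and 120309 in Ctrl and 160669, 174049 and 153061 in D1, a log2 difference of 0.33 ± 0.16 (SE). Each D1 array thus lay above each Ctrl array. The other genes of small p on the higher side were Rpl38 (0.40 ± 0.26), Rpl13 (0.29 ± 0.17) and Rps15a (0.23 ± 0.14). On the lower side stood Rps21 (-0.32 ± 0.27), Rpl29 (-0.23 ± 0.17), Rps27 (-0.22 ± 0.17) and Rpl19 (-0.20 ± 0.17). Groups did not overlap for 5 genes on the higher side (Rpl8, Rpl13, Rpl14, Rps15a and Rps27l), which is 11.6% beside 4.92% of all features, and for Rpl35a and Rps21 on the lower side, beside 5.19%. Rplp0, which anchors the ribosomal stalk, differed by 0.08, Rpsa by 0.21, Rpl22, needed for T cell development in mice, by 0.20 and Rps27l by 0.19.

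After 2 weeks the ribosomal protein genes stood above Ctrl as a group, by a modest amount, and 1 of them rose by the test. This comparison asks what sustained daily treatment changed. Of 43 genes 40 lay above Ctrl (93.0%, beside 62.7% of all features), with a median log2 difference of 0.49, quartiles of 0.20 and 0.67 and a range of -0.38 to 1.32. All features had a median of 0.14 and features of like intensity 0.08. Measured against its own like-intensity features, the median gene stood 0.41 higher. Rpl38 rose (adjusted p = 0.0497, limma), which is 1 gene of 43 beside 0.432% of all features called higher, and 0 genes were called lower beside 1.18%. With p unadjusted, 22 genes were past the threshold of 0.05 on the higher side, beside 17.3% of all features, and 0 on the lower side, beside 12.4%. In 23 genes (53.5%) every WK2 array lay above every Ctrl array, beside 23.8% of all features, and Rps27 was the 1 gene with every WK2 array below, beside 13.8%.

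**Figure D1:**
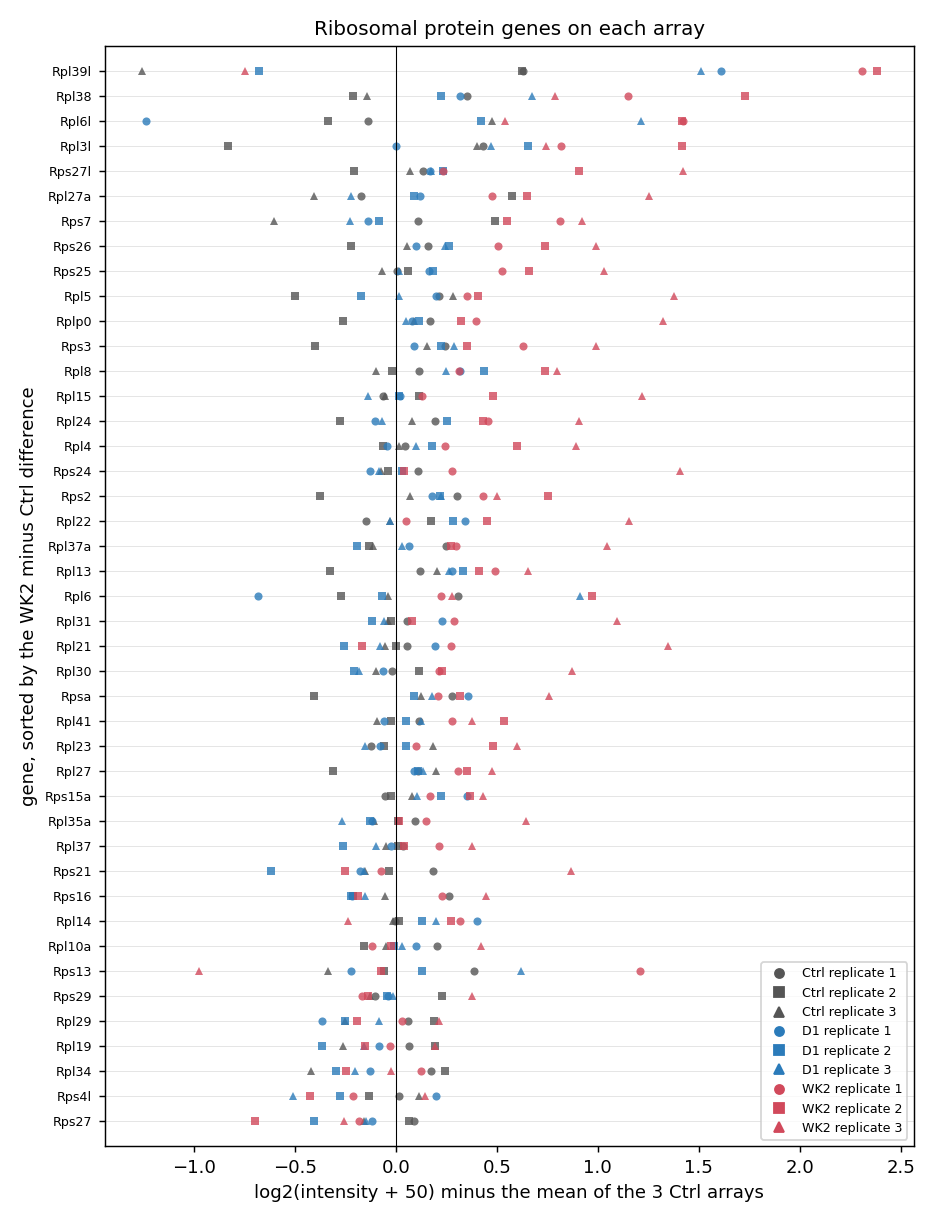
Each row is 1 of the 43 genes, sorted by the WK2 minus Ctrl difference, and each point is 1 array: log2(intensity + 50) minus the mean of the 3 Ctrl arrays, coloured by group and shaped by replicate. The WK2 points lie to the right for most genes, with WK2 replicate 3 (triangles) farthest right in many, and Rps27 at the bottom lies to the left.

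Rpl38, a large subunit protein whose loss in the Tail-short mouse alters translation of Hox mRNAs, had the smallest p of all members. It read 4379, 2940 and 3084 on the Ctrl arrays, 4260, 3993 and 5476 on the D1 arrays and 7627, 11440 and 5923 on the WK2 arrays. All 3 WK2 arrays lay above the other 6, while D1 and Ctrl overlapped. The difference from Ctrl was 1.22 ± 0.26 (SE) on the log2 scale, or 2.33-fold, and 1.25 above its like-intensity features. WK2 replicate 3 was the lowest of the WK2 arrays for this gene, and without it the difference was 1.44 with an adjusted p of 0.0800 (limma). The call ended when any 1 of the 9 arrays was left out, with adjusted p from 0.0527 to 0.148 (limma).

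The genes next in order of p did not pass. Rps25, a small subunit protein needed for initiation at some viral internal entry sites, read 1686, 1752 and 1595 in Ctrl and 2437, 2677 and 3484 in WK2. Its difference was 0.74 ± 0.16 (SE, adjusted p = 0.0522, limma), and its D1 arrays, at 1884, 1911 and 1694, overlapped Ctrl. Rps26 read 216586, 166208 and 201511 in Ctrl and 275372, 323354 and 384300 in WK2, a difference of 0.75 ± 0.17 (adjusted p = 0.0551, limma). In both genes all 3 WK2 arrays lay above all 6 others, as was so for 18 of the 43 genes and for 12.8% of all features. Rpl8 differed by 0.62 ± 0.16 (adjusted p = 0.0647, limma), with 160079, 214933 and 224006 in WK2, which overlapped D1 but not Ctrl. Rplp0 was at 0.68 ± 0.25 (adjusted p = 0.116), Rpl22 at 0.55 ± 0.25 (0.176) and Rpsa at 0.43 ± 0.21 (0.203), all by limma. Of these 3, Rplp0 alone had every WK2 array above every Ctrl array. Without WK2 replicate 3, Rplp0 went to 0.36, Rpl22 to 0.25 and Rpsa to 0.26, and Rpsa went to 0.23 without Ctrl replicate 2.

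Both subunits held most of their genes above Ctrl. The 25 large subunit genes other than paralogs had a median of 0.49, with 24 above Ctrl, and the 13 small subunit genes a median of 0.43, with 12 above Ctrl. In the large subunit, Rpl5, which carries 5S rRNA into the ribosome and binds Mdm2 under stress, was at 0.71 ± 0.30 (SE), Rpl27a at 0.79 ± 0.28, Rpl15 at 0.61 ± 0.24 and Rpl24 at 0.60 ± 0.19. In the small subunit, Rps7, mutated in some human Diamond-Blackfan anaemia, was at 0.76 ± 0.25, Rps3, at the mRNA entry channel, at 0.66 ± 0.21 and Rps24 at 0.58 ± 0.30. Without WK2 replicate 3, Rpl5 went to 0.38, Rpl15 to 0.31 and Rps24 to 0.16. Whether the subunits differ was not tested. The 7 genes with a TOP motif at an annotated start had a median of 0.27 and ranged from Rps27 at -0.38 to Rpl38 at 1.22. The 29 with a start but no motif had a median of 0.55. Because an annotated start can lie a few bases from the true one, genes without the motif here may still carry it. The split thus depends on the annotation, and whether the medians differ was not tested.

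Of the 5 paralogs 4 lay above Ctrl, beside 62.7% of all features, and 0 were called. Their median was 0.99, where the 38 other genes had 0.49, a difference that was not tested. Single paralogs differed in direction and spread. Rps27l, a p53-inducible relative of Rps27 in human cells, read 35371, 27895 and 33764 in Ctrl and 37832, 60463 and 86173 in WK2. Its difference was 0.85 ± 0.26 (SE, adjusted p = 0.0797, limma; 0.57 without WK2 replicate 3), and the groups did not overlap although WK2 replicate 1 lay close to Ctrl. Rps27 itself read 1346, 1320 and 1127 in Ctrl, 1158, 942 and 1135 in D1 and 1105, 760 and 1049 in WK2. That is a difference of -0.38 ± 0.17 (adjusted p = 0.178, limma; -0.22 without WK2 replicate 2), so Rps27 stood below Ctrl where Rps27l stood above it, and neither passed. Rpl3l, the striated muscle relative of Rpl3, was at 0.99 ± 0.34 on its brightest probe, but its 2 dimmer probes gave -0.18 and 0.39, so its direction is uncertain. Rpl39l, the testis-enriched relative of Rpl39, had the highest difference (1.32 ± 0.91) and the widest spread: it read 3589 and 3776 on WK2 replicates 1 and 2 but 388 on replicate 3, within the Ctrl range of 257 to 1086. Rpl6l was at 1.13 ± 0.53 and Rps4l at -0.16 ± 0.21. Sequences of paralogs are alike, and how far their probes share signal was not tested.

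Besides Rps27, the lower side held Rps4l and Rpl34, at -0.05 ± 0.19 (SE). Rpl34 read 2113, 2219 and 1383 in Ctrl and 2038, 1565 and 1837 in WK2, so the groups overlapped. Of the other genes with several probes, Rps15a had probes of opposite sign in WK2, at 0.32 on the brighter and -0.27 on the dimmer. The dimmer probe of Rpl37, singled out after its values were seen, was at 0.79 (adjusted p = 0.0395 over all probes, limma), reading 193 to 210 in Ctrl and 346 to 410 in WK2, where the brighter probe was at 0.21.

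The distance from features of like intensity depended on brightness. In the 14 dimmest genes the median WK2 minus Ctrl difference was 0.32 and that of like-intensity features 0.25, leaving 0.04 per gene. In the middle 14 genes the values were 0.49 and 0.03, leaving 0.50, and in the 15 brightest 0.58 and 0.01, leaving 0.49. At the very top the background itself moved. The 50 brightest features outside the family had a median of 0.43 against Ctrl, with 45 of 50 above 0, and 0.02 under quantile normalization. Rpl41, which ranked between 7 and 24 on the single arrays, read 421654, 383190 and 364108 in Ctrl and 472362, 564171 and 505892 in WK2. Its difference of 0.40 ± 0.14 (SE) was thus -0.03 relative to the 50 features nearest to it, and -0.21 under quantile normalization, so Rpl41 has no settled direction. Rps26 stood 0.56, Rpl8 0.41 and Rpl4 0.41 above their nearest 50 features. Under quantile normalization Rps26 went from 0.75 to 0.42 (adjusted p = 0.0763, limma), Rpl8 from 0.62 to 0.36 and Rpl4 from 0.58 to 0.31.

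**Figure D2:**
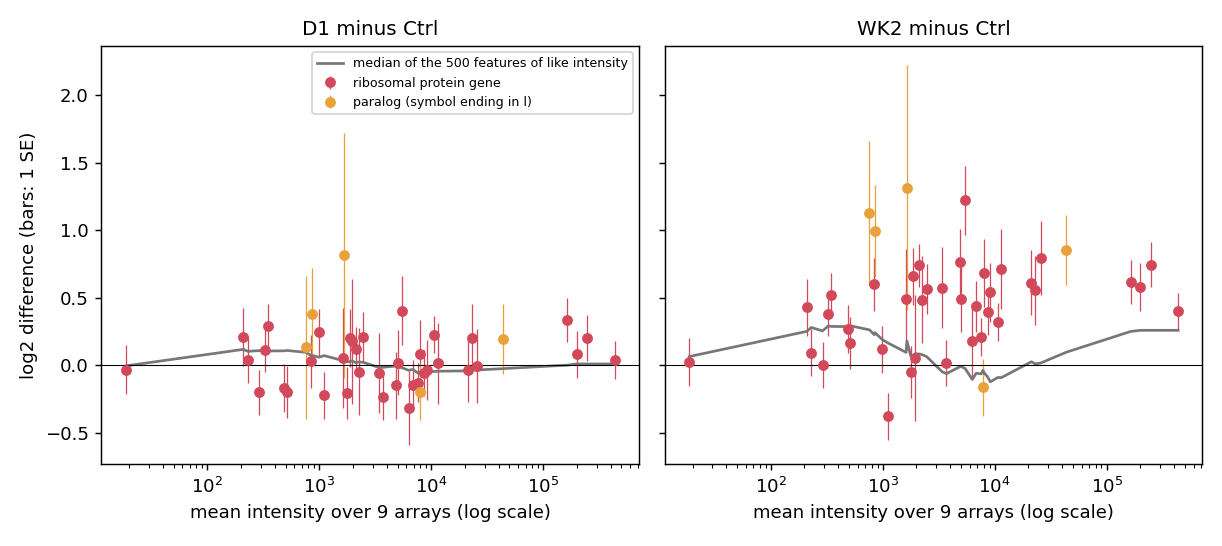
Log2 difference from Ctrl of each of the 43 genes (points, bars of 1 SE) against mean intensity over the 9 arrays on a log scale, for D1 on the left and WK2 on the right. The grey line joins the median differences of the 500 features of like intensity. In D1 the points scatter around the line, and in WK2 most points lie above it, apart from those at the dim end.

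The excess at 2 weeks was largest on WK2 replicate 3. As deviations from each gene's mean over the 9 arrays, the medians of the 43 genes were -0.06, -0.20 and -0.19 on the Ctrl arrays, -0.13, -0.14 and -0.11 on the D1 arrays and 0.13, 0.15 and 0.48 on the WK2 arrays. The 3 WK2 arrays therefore lay above the other 6, and replicate 3 lay far above replicates 1 and 2. Features of like intensity had 0.04, 0.00 and 0.09 on the WK2 arrays. On replicate 3, 30 of the 43 genes (69.8%) had their highest value of all 9 arrays, as did 31.0% of all features.

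**Figure D3:**
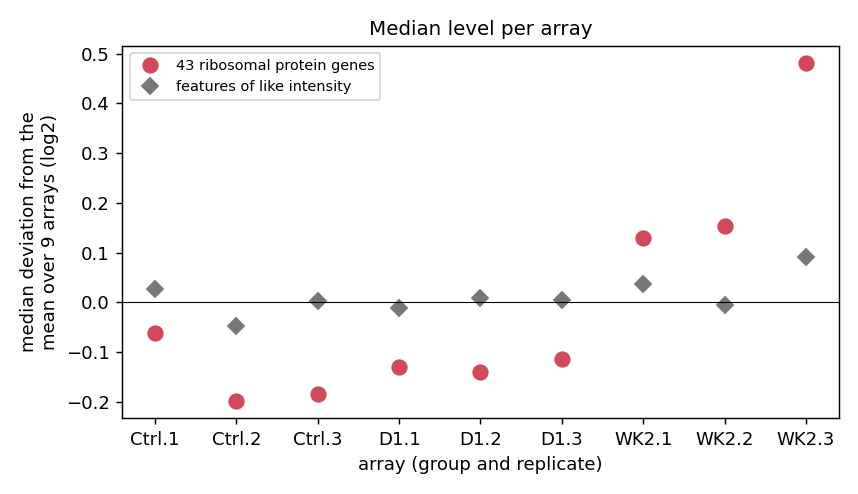
Median deviation from the mean over 9 arrays, on the log2 scale, for the 43 ribosomal protein genes (circles) and their like-intensity features (diamonds) on each array. The circles lie between -0.20 and -0.06 on the Ctrl and D1 arrays, at 0.13 and 0.15 on WK2 replicates 1 and 2 and at 0.48 on WK2 replicate 3, while the diamonds stay near 0.

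Set against the mean of WK2 replicates 1 and 2, replicate 3 was higher in 34 of 43 genes, beside 50.8% of all features, with a median of 0.43 beside 0.01. Rpl21 read 2313 and 1686 on replicates 1 and 2 and 4922 on replicate 3. Rps24, another gene mutated in human Diamond-Blackfan anaemia, read 3432, 2910 and 7580, and Rps21 read 5964, 5262 and 11458. For these 3 genes the log2 gap exceeded 1, as it did for 2.84% of all features, and replicates 1 and 2 of each did not both lie above its Ctrl range. A few genes went the other way: Rps13 read 3988, 1607 and 839, Rpl14 1136, 1101 and 758, and Rpl6l 1352, 1346 and 710.

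**Figure D4:**
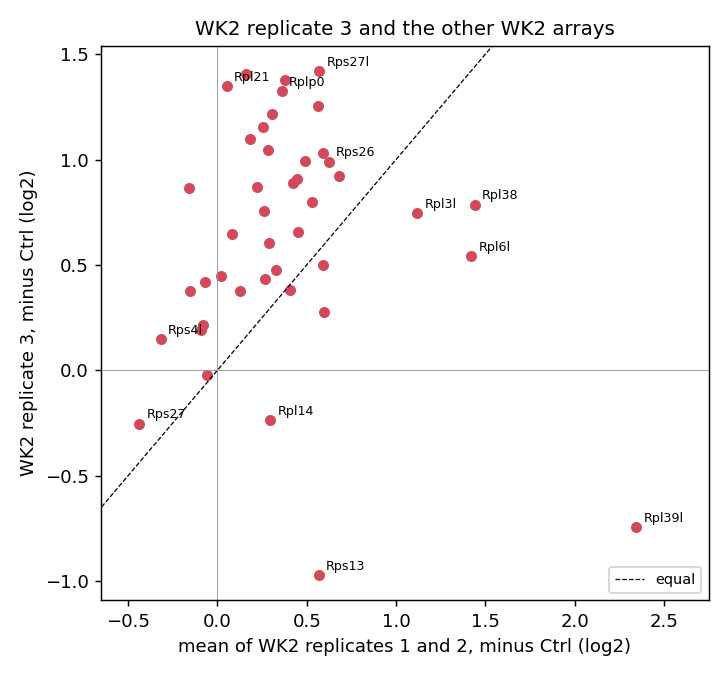
Each point is 1 of the 43 genes: the log2 difference from Ctrl of WK2 replicate 3 against that of the mean of WK2 replicates 1 and 2, with a dashed line where both are equal. Most points lie above the line, and Rpl39l, Rps13, Rpl38 and Rpl6l lie well below it.

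Without WK2 replicate 3 the group still stood above Ctrl, by less. Of 43 genes 35 lay above Ctrl, beside 60.2% of all features, with a median of 0.31, and the median gene stood 0.31 above its like-intensity features. The limma test then called 0 of the 43 genes and 4 of all features. Covariation among the genes was lower without this array. Within-group deviations of the 903 pairs of ribosomal protein genes had a median Pearson r of 0.30 over the 9 arrays, where pairs of a member and a like-intensity feature had 0.06. Without WK2 replicate 3 these were 0.07 and 0.05, and without any other 1 array the median over the pairs was 0.27 to 0.42. These are descriptions over 9 arrays that all pairs share. On the same array erythroid markers had a median deviation of 0.55 (7 genes measured of 14 listed), mature neuron markers 0.23 (15 of 15) and gland and support cell markers -0.25 (11 of 13). Immature neuron and basal cell markers had -0.06 there, neutrophil markers -0.13, proliferation markers -0.15, bone and cartilage markers -0.20 and B lineage markers -0.22. Erythroid markers also had 0.51 on both WK2 replicate 1 and D1 replicate 2, where the 43 genes had 0.13 and -0.14. The summed intensity of the erythroid markers was 123190 to 265009 in Ctrl, 110901 to 276277 in D1 and 174786 to 339960 in WK2, while the median deviation was -0.82 to 0.72 in Ctrl and -0.17 to 0.55 in WK2. Mature neuron markers were mixed: the summed intensity, which Omp leads, was higher on all WK2 arrays than on the others. Omp read 478900 to 540038 in WK2 and 300267 to 490368 on the other arrays. The samples were picked by Omp, so this sum is not free of that choice. The median deviation of 0.03 on WK2 replicate 2 lay below that of 0.05 on Ctrl replicates 1 and 2. Adcy3, the adenylyl cyclase of olfactory transduction, read 155366 to 197905 in Ctrl and 84232 to 150518 in WK2. For immature neuron and basal cell markers (12 of 13) the sum and the median deviation were lower on every WK2 array than on the other 6. Sums ran from 238358 to 271651 in WK2, 296702 to 319459 in Ctrl and 278936 to 310079 in D1. Median deviations ran from -0.21 to -0.03 in WK2. The single genes were mixed, with 5 above Ctrl and 7 below. Gap43 read 58727 to 64074 in Ctrl and 48872 to 53379 in WK2. Krt14, a basal cell keratin, went the other way, from 16034 to 17906 in Ctrl and 23724 to 31196 in WK2. B lineage markers (10 of 13) had sums of 57306 to 67138 in WK2, below the 70764 to 117380 of the other arrays, while their median deviations overlapped. These sums lean on Ebf1, the brightest of them in Ctrl, which read 29446 to 30907 in Ctrl and 18745 to 21735 in WK2. Whether its signal in this tissue comes from B lineage cells was not tested, so the sums do not show a fall of that lineage. Vpreb3, the next brightest in Ctrl, read 17475 to 23653 in Ctrl and 16220 to 19210 in WK2, which overlap. Of the 10 genes, 4 lay above Ctrl and 6 below. Vpreb1 read 680 to 818 in Ctrl and 910 to 1862 in WK2, and Igll1 673 to 869 and 1024 to 1384. The part of these cell types in the result was not tested.

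Against D1, which shares the WK2 arrays with the comparison above, the picture was close in size. Of 43 genes 40 lay above D1, beside 61.6% of all features, with a median of 0.45, beside 0.10 for all features and 0.08 for those of like intensity. None passed the limma test, beside 0.0296% of all features called higher and 0.0635% lower, while 17 had an unadjusted p under 0.05 on the higher side, beside 8.96%, and 0 on the lower side, beside 10.2%. In 22 genes (51.2%) every WK2 array lay above every D1 array, beside 18.7% of all features. Rps25 had the smallest p, with a difference of 0.62 ± 0.16 (SE, adjusted p = 0.138, limma), followed by Rps7, which read 3634, 3777 and 3412 in D1 and 7071, 5894 and 7619 in WK2 (0.91 ± 0.25). Rps7 in Ctrl ran from 2620 to 5654, below all WK2 arrays. Rps26 was at 0.54 and Rpl38 at 0.82. Rps27 (-0.15), Rpl14 (-0.13) and Rps13 (-0.12) were the 3 genes below D1. Rplp0 was at 0.60, Rps27l at 0.66, Rpl22 at 0.35 and Rpsa at 0.22. Without WK2 replicate 3 these were 0.28, 0.38, 0.053 and 0.053.

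Other parts of the translation machinery were set beside the family by lists of textbook genes. In D1 against Ctrl 0 of their genes passed the test, and list medians ran from -0.07 to 0.01. In WK2 against Ctrl, ribosomal proteins and relatives under other symbols had 4 of 5 measured genes above Ctrl (10 listed), beside 62.7% of all features. Their median of 0.15 was close to the 0.14 of all features. The test called 1 higher and 0 lower, beside 0.432% and 1.18% of all features. Fau, which encodes a ubiquitin-like protein fused to a small subunit protein, rose: it read 249578, 287210 and 221184 in Ctrl, 279255, 348528 and 294231 in D1 and 387237, 446950 and 443466 in WK2, a difference of 0.76 ± 0.16 (SE, adjusted p = 0.0494, limma). All WK2 arrays lay above the other 6, as was so for 12.8% of all features. This gene is among the brightest features, and under quantile normalization its difference was 0.36 with an adjusted p of 0.164 (limma). Rpl7l1 was at 0.57 and Rps19bp1, a binding partner of a small subunit protein, at 0.15.

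Factors that make ribosomes showed single changes. Of 49 measured biogenesis genes (50 listed) 30 lay above Ctrl in WK2, with a median of 0.23, 1 called higher and 0 lower. That is no larger a share than the 62.7% of all features above Ctrl, of which 0.432% were called higher and 1.18% lower. Tsr1, a maturation factor of the small subunit, rose from 4134, 4612 and 3753 in Ctrl to 6412, 9650 and 9201 in WK2, by 0.99 ± 0.19 (SE, adjusted p = 0.0470, limma), with no overlap. Polr1d, a subunit of RNA polymerases I and III, was at 0.70 and Imp3, a factor of early ribosomal RNA processing, at 0.57, and neither passed. Of 71 genes of the mitochondrial ribosome, a separate particle, 53 lay above Ctrl with a median of 0.25 and 0 called. Mrpl20 was at 0.77 (adjusted p = 0.0584, limma), Mrpl39 at 0.81 and Mrps2 at -0.56.

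Factors that work with ribosomes had lower list medians than the biogenesis and mitochondrial ribosome lists, a difference that was not tested. Among all features 62.7% lay above Ctrl, 0.432% were called higher and 1.18% lower. Of 10 measured elongation factors and other TOP mRNAs (12 listed) 6 lay above Ctrl, with a median of 0.04 and 0 called. Naca was at 0.77 and Btf3, its partner in the nascent chain complex, at 0.46. Naca went to 0.49 without WK2 replicate 3 and to 0.26 with its probes averaged, and Btf3 to 0.13 without Ctrl replicate 2. Eef1a2, the elongation factor form of neurons and muscle, was at -1.22 (adjusted p = 0.0636, limma), reading 50750, 50457 and 49959 in Ctrl and 29428, 26704 and 12888 in WK2. Of 35 measured initiation factors (41 listed) 20 lay above Ctrl, with a median of 0.16 and 0 called, among them Eif4g2 at 0.65, Eif3f at -0.48 and Eif4b at -0.45.

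The list of mTOR complex 1 and TOP control stood lowest. Of 19 measured genes (20 listed) 14 lay below Ctrl in WK2, with a median of -0.36, 0 called higher and 1 lower, beside 62.7% of all features above Ctrl, 0.432% called higher and 1.18% lower. Sesn2, a leucine sensor that restrains mTOR complex 1, fell from 378, 480 and 402 in Ctrl to 269, 214 and 190 in WK2, by 0.78 on the log2 scale (adjusted p = 0.0489, limma), with no overlap. Tsc2, a brake on the complex, was at -0.77 (adjusted p = 0.0508) and Mtor, its kinase, at -0.67 (0.0579), both by limma and both without passing. The list thus holds activators and inhibitors on the same side. Sesn2 also stands in the ribosomal stress list, in which 5 of 10 measured genes (11 listed) lay above Ctrl, with a median of 0.01, and Sesn2 was the 1 called; Asns was at 0.92 and Trib3 at -0.73. The calls of Fau, Tsr1 and Sesn2 each ended when any 1 array other than WK2 replicate 1 was left out, with adjusted p up to 0.148 (limma).

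**Figure D5:**
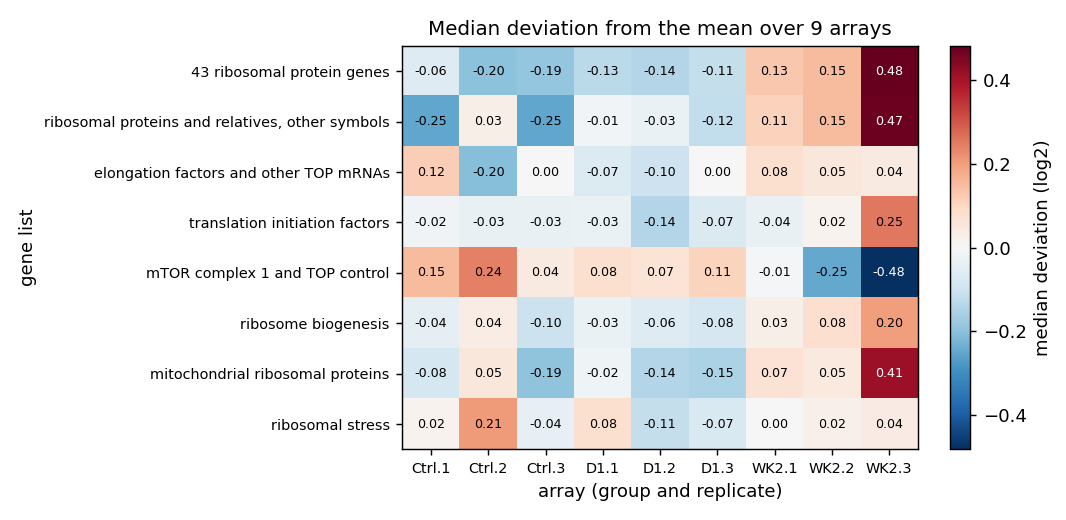
Median log2 deviation from the mean over 9 arrays, for the 43 ribosomal protein genes and 7 lists (rows) on each array (columns), with the value printed in each cell and red for higher. WK2 replicate 3 has 0.48 for the ribosomal protein genes, 0.41 for the mitochondrial ribosome, 0.25 for initiation factors and -0.48 for the mTOR complex 1 list.

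WK2 replicate 3 stood apart in these lists too. Its median deviation was 0.41 for the mitochondrial ribosome, where replicates 1 and 2 had 0.07 and 0.05, and 0.25 for initiation factors, where they had -0.04 and 0.02. For the mTOR complex 1 list it was -0.48, beside -0.01 and -0.25. Elongation factors and other TOP mRNAs had 0.04 on replicate 3, beside 0.08 and 0.05 on replicates 1 and 2.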

How the data were processed

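The authors deposited 1 table of intensity values on a linear scale, 26423 probes by 9 arrays, for Cy5-labelled amplified total RNA. Not given in the sources used here: scanner, software and normalization. Per the labels' protocols, 1 µg of RNA with an integrity number of at least 7 was amplified. The values were used as deposited. Probes were named through the platform annotation, updated by gene ID through RefSeq (GRCm38.p6): 21876 probes had 1 symbol, 0 had several, 4547 had none, and 21825 gene IDs matched.

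The probe with the highest mean represented a gene. Values were tested as log2(intensity + 50), which understates changes of dim genes, in 1 limma 3.58.1 model (R 4.3.3) over all 9 arrays, with Benjamini-Hochberg adjustment over 23631 features per comparison and a threshold of 0.05. Like-intensity features are the 500 non-members nearest in mean log2 intensity. With 3 arrays a group, precision is limited by their number. The gene test was tested on simulated data.

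Named genes are the members past the threshold, up to 8 in each direction, filled up to 4 by smallest p, always Rplp0, Rpsa, Rpl22 and Rps27l (Rplp1, Rplp2 and Rps6 where measured), up to 3 genes of smallest p per list, and the 4 brightest and 4 dimmest members. Other members were named after their values were seen. Members, lists and tests were chosen with earlier results of these data known.

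Alternatives were other scalings, pseudocounts of 500 and 16, leaving out the dimmest 25% of features, averaged probes, the replicate number as a block, moderation with trend and robust settings, the compared groups alone, array weights, a threshold of 0.1, the nearest 200 features and leaving out each array. A comparison with the nearest 50 features was added after seeing the data.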

Additional observations from a re-analysis of the deposited data

How the results depend on the processing

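Another scaling moved the median of all features in WK2 against Ctrl from 0.14 to between 0.01 and 0.04. Above 0 were then 33 of the 43 ribosomal protein genes under quantile normalization (median 0.42), 35 under median centring (0.39) and 35 under cyclic loess (0.45). The count of ribosomal protein genes called higher in WK2 against Ctrl was 1, where 380 of all 23631 features were called in either direction. It was 2 under quantile normalization (all features 1419), median centring (1545), cyclic loess (682) and a pseudocount of 500 (777). Without the dimmest 25% of features it was 3 (615 of 17723), with array weights 5 (2738) and at an adjusted p under 0.1 it was 11. With a pseudocount of 16 it was 0 (131), as with only the compared groups fitted (0). With 1 array left out it was 0 to 5 (5 without WK2 replicate 1, where 953 of all features were called, and 0 otherwise). The count of ribosomal protein genes thus moved along with the count over all features in several settings. With the replicate number as a block it was 0 (Rpl38 at adjusted p = 0.105, limma) and the calls over all features fell from 380 to 1. Deviations of same-numbered arrays correlated at -0.28 to 0.14 and those of differently numbered arrays at -0.34 to 0.31. With so few arrays these values cannot show whether the numbers pair the samples. The cause of the changes in the calls was not tested. With array weights, which give less weight to arrays far from their group, the median of the ribosomal protein genes was 0.33 against Ctrl (0.31 to 0.59 with 1 array left out) and 0.31 against D1 (0.28 to 0.57), and that over like-intensity features 0.32 (0.31 to 0.52) and 0.25 (0.25 to 0.39). All of these stayed above 0.

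Named genes changed sign as follows. In WK2 against Ctrl, Rps29, at 0.02, lay at -0.073 under quantile normalization, -0.077 under median centring, -0.14 under cyclic loess and -0.0095 with array weights, and at -0.15 to 0.14 with 1 array left out. Rpl10a, at 0.09, lay at -0.16, -0.0085, -0.12 and -0.092 under the same settings and at -0.072 (without WK2 replicate 3) to 0.20 with 1 array left out. Rpl41 lay at -0.21 under quantile normalization. Rpl34 lay at 0.14 with array weights and at -0.26 to 0.074 with 1 array left out, and Rps19bp1 at -0.092 (without WK2 replicate 3) to 0.33. In WK2 against D1, Rps13 lay at 0.30 and Rpl14 at 0.033 with array weights. With 1 array left out, Rps13 lay at -0.70 to 0.39 (above 0 without WK2 replicate 3, and at 0.10 without D1 replicate 3), Rpl14 at -0.22 to 0.052 (above 0 without WK2 replicate 3) and Rps27 at -0.25 to 0.0041 (without WK2 replicate 2). In D1 against Ctrl, Rplp0 lay at -0.032 with array weights and at -0.048 (without Ctrl replicate 2) to 0.17 with 1 array left out. For probes as dim as that of Rps29 the signal over background sets the limit.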
